A study of Mus musculus with 21 samples.

Results

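The genes described here are the EGF receptor (Egfr) and the ligands Areg, Hbegf, Ereg, Tgfa and Btc, measured in mouse lung after the airways received a fungal antigen extract. A probe set is a group of short oligonucleotides on the array that reads 1 or more transcripts. Members were the probe sets whose platform annotation gave 1 of these 6 gene symbols. There were 13 such probe sets among the 22690 on the array, and they read 5 of the 6 genes: 2 for Hbegf, 1 for Ereg, 3 for Tgfa, 2 for Btc and 5 for Egfr. Areg, the amphiregulin gene, was not analysed here, since the annotation used paired no probe set with it.

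All mice were female BALB/c, 8 weeks old, and each received 1 aspiration into the trachea. MACA stands for Metarhizium anisopliae crude antigen, made from a mould, and was given at 20 µg. BSA (bovine serum albumin) was given at the same 20 µg. Both were in 50 µl of HBSS, a buffered salt solution, and the third agent was 50 µl of HBSS alone. RNA of the homogenized left lung was taken 3 h or 12 h later, which gave 4 MACA, 3 BSA and 3 HBSS arrays at 3 h and 3 MACA, 4 BSA and 4 HBSS arrays at 12 h. Because the whole lung was used, more cells of a type and more RNA per cell cannot be told apart in any value below.

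The EGF receptor is a tyrosine kinase of epithelial cells and several other cell types. Its ligands are made as membrane-anchored precursors, and metalloproteases of the ADAM family cut them free, after which they bind the receptor on the same or a nearby cell. The receptor then signals through adaptors and a kinase cascade to a group of rapidly induced transcription factors, and induced inhibitors such as the Sprouty proteins and Errfi1 limit that signal. In the airways the system is known for its part in epithelial repair and mucus production.

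Values are array intensities after quantile normalization, a step that gives every array the same distribution. The noise level was an intensity of 40.9, and a probe set under it has no level that can be read. Fold changes were taken from log2(intensity + 16), which understates the change of dim genes. A change was called where the Benjamini-Hochberg adjusted p of limma's moderated test over all 22626 non-control probe sets was under 0.05. The lung epithelial genes Sftpc and Scgb1a1 lay at least 272 and 307 times over the noise level on every array. By the ratio of 2 probe sets of a spiked hybridization control the arrays fall into 2 technical sets, 13 in the high set and 8 in the low set. Every HBSS 12 h array is in the low set, as are replicates 3 and 4 of BSA at 12 h and of MACA at 3 h. As all 3 MACA 12 h arrays lie in the high set, no set holds both MACA and HBSS arrays of 12 h. A fit that adds the set as a covariate (the set term) was run in place of a comparison within a set. The set term is estimated only from MACA 3 h and BSA 12 h, which have 2 arrays in each set. It takes the set effect to be the same in every group. For MACA against HBSS at 12 h that cannot be checked, so the set term does not separate agent from set there.

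Hbegf, the gene of heparin-binding EGF-like growth factor, was the member that rose with MACA at both times. On probe set 1418349_at every one of the 7 MACA arrays, the lowest at 784, lay above every one of the 14 BSA and HBSS arrays, the highest at 677. At 3 h its intensities were 901, 1285, 909 and 1059.7 in MACA lungs, 539, 494 and 577 in BSA lungs, and 617, 539 and 489 in HBSS lungs. At 12 h they were 784, 1206 and 861 in MACA lungs, 677, 476, 658 and 443 in BSA lungs, and 419.9, 453, 529.8 and 488 in HBSS lungs. BSA and HBSS lungs overlapped at both times.

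The rise of Hbegf 1418349_at over HBSS was 1.86-fold at 3 h (log2 0.89, SE 0.17, adjusted p = 0.0054) and 1.95-fold at 12 h (log2 0.96, SE 0.17, adjusted p = 0.00137). Over BSA it was 1.89-fold at 3 h (log2 0.92, adjusted p = 0.00599) and 1.67-fold at 12 h (log2 0.74, adjusted p = 0.0164). Both comparisons of a time use the same MACA arrays, so they are not independent. The test did not call BSA against HBSS at 3 h (log2 -0.03, 95% interval -0.41 to 0.36) or at 12 h (log2 0.23, interval -0.11 to 0.56). The MACA to HBSS difference was 0.07 larger on the log2 scale at 12 h than at 3 h, with an interval of -0.44 to 0.58, so a change of the effect between times was not detected. With the technical set as a term the log2 folds over HBSS were 0.94 at 3 h (adjusted p = 0.00861) and 0.86 at 12 h (adjusted p = 0.0237). At 12 h that term does not separate agent from set. Within the high set the 3 h value over HBSS was 0.96, with adjusted p = 0.057 on 2 MACA arrays. Over BSA at 3 h the call was lost with only the compared groups in the fit (adjusted p = 0.0595) and within the high set (0.0836). Over BSA at 12 h it was lost with the compared groups alone (adjusted p = 0.19), within the high set (0.151), with the set term (0.0573), and without MACA 12 h replicate 2 (0.107) or BSA 12 h replicate 4 (0.0538). None of these 4 calls stood without scaling between arrays. Over HBSS the unscaled log2 folds were 1.00 at 3 h (adjusted p = 0.245) and 0.29 at 12 h (adjusted p = 0.481), which relative to the median of all probe sets are 0.95 and 0.84. Over BSA they were 0.85 at 3 h (adjusted p = 0.592) and 0.63 at 12 h (adjusted p = 0.555), or 0.88 and 0.71 relative to the median.

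The second Hbegf probe set, 1418350_at, gave the same direction with more scatter. At 3 h it read 899, 1199, 889 and 1165 in MACA lungs, 428, 954 and 678 in BSA lungs, and 595, 573 and 637 in HBSS lungs. The 12 h readings were 748, 1092 and 893 in MACA lungs, 583, 416, 609 and 699 in BSA lungs, and 458, 451, 497 and 455 in HBSS lungs. MACA and HBSS lungs did not overlap at either time, while at 3 h BSA replicate 2, at 954, reached into the MACA range. That array is also where the probe sets of the gene disagree most, by 0.93 on the log2 scale, and they lay within 0.5 of each other on 19 of 21 arrays.

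By 1418350_at, Hbegf rose 1.69-fold over HBSS at 3 h (log2 0.76, SE 0.21, adjusted p = 0.0455) and 1.91-fold at 12 h (log2 0.93, SE 0.21, adjusted p = 0.00724). The 3 h call was lost without any 1 of MACA 3 h replicates 2, 3 and 4 or HBSS 3 h replicates 1, 2 and 3 (log2 0.69 to 0.83, adjusted p = 0.0542 to 0.125) and with the set term (0.67, adjusted p = 0.105). It was also lost without scaling (0.87, adjusted p = 0.177), with median scaling (0.72, 0.0641), with a pseudocount of 4 (0.77, 0.0506), within the high set (0.77, 0.226) and with the replicate number as a block (0.71, 0.0659). The 12 h call was lost without scaling (log2 0.26, adjusted p = 0.425, 0.81 relative to the median) and without MACA 12 h replicate 2 (log2 0.79, adjusted p = 0.0521). It stood with the set term (1.11, adjusted p = 0.0195), which does not separate agent from set in this comparison. Over BSA the log2 folds were 0.64 at 3 h (adjusted p = 0.0958) and 0.65 at 12 h (adjusted p = 0.0759), neither of them past the threshold. Without BSA 3 h replicate 2 the 3 h fold over BSA was 0.91 (adjusted p = 0.0359).

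In the order of group means, 1418349_at ran from MACA 3 h (log2 10.03) and MACA 12 h (9.89) to BSA 12 h (9.15), HBSS 3 h (9.13), BSA 3 h (9.11) and HBSS 12 h (8.93). The step between MACA 12 h and BSA 12 h passed the test. The MACA groups were not called apart (log2 -0.14 for 12 h against 3 h, 95% interval -0.50 to 0.22), and the 4 BSA and HBSS groups were not called apart in any comparison made among them.

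Ereg, the gene of epiregulin, was near the noise level, and 7 of its 21 arrays lay over it. At 3 h probe set 1419431_at read 62.7, 68.8, 44.8 and 55.7 in MACA lungs, 43.8, 53.9 and 37.1 in BSA lungs, and 33.7, 17.0 and 1.71 in HBSS lungs. All 4 MACA arrays and 2 of 3 BSA arrays were over the noise level, and no HBSS array was. The 12 h values were 17.5, 20.4 and 49.2 in MACA lungs, 28.6, 17.4, 25.1 and 0.24 in BSA lungs, and 40.5, 24.2, 26.4 and 20.4 in HBSS lungs, so 1 of these 11 arrays was over the noise level.

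Set against the noise level, Ereg was at least 1.29-fold higher in MACA than in HBSS lungs at 3 h (adjusted p = 0.0441). That bound takes the mean of the MACA arrays over the noise level, since every HBSS array lay below it. Without HBSS 3 h replicate 3, the array at 1.71, the adjusted p was 0.214, and it was 0.0589 to 0.0961 without HBSS 3 h replicate 2 or any 1 MACA 3 h array. The call was also lost without scaling (0.184), with a pseudocount of 4 (0.0962), with only the compared groups (0.126) and within the high set (0.113). BSA lungs at 3 h also stood above all HBSS lungs, at least 1.06-fold, a difference that did not pass the test (adjusted p = 0.378). MACA and BSA lungs overlapped at 3 h (log2 0.28, 95% interval -0.46 to 1.02, adjusted p = 0.72). At 12 h no fold is given, since all 4 HBSS arrays and 2 of 3 MACA arrays were under the noise level, and for the same reason a change of the effect between times cannot be read. In the reference gene table Ereg stands in a run of neighbouring genes with Epgn, Areg and Btc.

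Tgfa, the gene of transforming growth factor alpha, did not pass the test for any agent at either time. At 3 h its brightest probe set, 1421943_at, read 254, 285, 214 and 275 in MACA lungs, 293, 293 and 281 in BSA lungs, and 256, 234 and 258 in HBSS lungs. Its 12 h values were 216, 169.9 and 205 in MACA lungs, 204, 244, 189.97 and 177 in BSA lungs, and 248, 229, 203 and 191 in HBSS lungs. MACA and HBSS lungs overlapped at both times, with log2 folds of 0.04 at 3 h (95% interval -0.20 to 0.28) and -0.14 at 12 h (interval -0.38 to 0.10). Across time Tgfa fell in BSA lungs, where it was lower at 12 h than at 3 h (log2 -0.48, SE 0.11, adjusted p = 0.0299) with no overlap. The same comparison gave -0.36 in MACA lungs (adjusted p = 0.0589) and -0.19 in HBSS lungs (adjusted p = 0.369), and the gap of BSA over HBSS moved by -0.29 between times, which did not pass (adjusted p = 0.381). The BSA call was lost with the set term (-0.38, adjusted p = 0.113), within the high set (-0.35, 0.173), with only the compared groups (0.167), without scaling (0.776) and without any 1 of BSA 3 h replicates 1, 2 and 3 or BSA 12 h replicates 3 and 4 (-0.50 to -0.42, adjusted p = 0.0588 to 0.119).

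The other Tgfa probe sets were dim. 1450421_at lay between 15.4 and 64.7, over the noise level on 12 of 21 arrays, and 1421942_s_at never exceeded 8.61. Neither passed the test in any comparison.

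Btc, the gene of betacellulin, was low, and its brighter probe set 1435541_at was over the noise level on 15 of 21 arrays. At 3 h it read 53.6, 45.6, 40.8 and 47.7 in MACA lungs, 63.4, 78.8 and 54.8 in BSA lungs, and 52.7, 49.6 and 65.7 in HBSS lungs. The values at 12 h were 38.5, 35.9 and 40.5 in MACA lungs, 28.9, 43.4, 73.8 and 34.8 in BSA lungs, and 46.1, 58.0, 44.2 and 49.5 in HBSS lungs. All 3 MACA 12 h arrays were under the noise level and all 4 HBSS 12 h arrays over it, at least 1.15-fold apart, and the test did not call this difference (adjusted p = 0.337). MACA lungs were also below all BSA lungs at 3 h, again without a call (log2 -0.37, adjusted p = 0.234). The second probe set, 1421161_at, was under the noise level on all 21 arrays, between 4.34 and 27.9. Its MACA to HBSS difference at 12 h had an adjusted p of 0.0386 with MACA the lower, and no fold is given because both groups were below noise. That call was lost in 11 alternatives, among them the set term (adjusted p = 0.202), median scaling (0.0755), only the compared groups (0.075), the replicate block (0.0585) and leaving out MACA 12 h replicate 2 (0.16).

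Egfr, the receptor, was read by 5 probe sets that did not move alike. The brightest, 1424932_at, read 277, 242, 241 and 226 in MACA lungs, 261, 222 and 279 in BSA lungs and 194, 204 and 193 in HBSS lungs at 3 h. At 12 h it read 151, 214 and 209 in MACA lungs, 179, 182, 203 and 216 in BSA lungs, and 163, 146, 149 and 191 in HBSS lungs. At 3 h every MACA and BSA array was above every HBSS array, but neither difference passed the test. The log2 folds were 0.30 for MACA (95% interval 0.05 to 0.54, adjusted p = 0.145) and 0.34 for BSA (interval 0.08 to 0.60, adjusted p = 0.352), each against HBSS. At 12 h MACA lungs overlapped HBSS lungs (log2 0.21, adjusted p = 0.247). Without MACA 12 h replicate 1, the array at 151, this fold was 0.36 (adjusted p = 0.041).

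Probe set 1460420_a_at of Egfr showed another order. At 3 h it read 196, 176, 187 and 179 in MACA lungs, 164, 159 and 176 in BSA lungs, and 219, 186 and 194 in HBSS lungs. Its readings at 12 h were 243, 212 and 167 in MACA lungs, 185, 191, 201.5 and 180.1 in BSA lungs, and 163, 145, 163 and 143 in HBSS lungs. At 12 h all MACA and BSA arrays stood above all HBSS arrays, and at 3 h HBSS lungs were the highest on average.

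The difference at 12 h was 1.31-fold for MACA over HBSS (log2 0.39, SE 0.09, adjusted p = 0.00949) and did not pass for BSA over HBSS (log2 0.28, adjusted p = 0.114). HBSS lungs themselves were lower at 12 h than at 3 h on this probe set (log2 -0.35, SE 0.09, adjusted p = 0.0343). From 3 h to 12 h the gap of MACA over HBSS moved by 0.49 (adjusted p = 0.0534). Both calls rest on the scaling between arrays. Without scaling the median of all probe sets shifted by -0.55 for MACA against HBSS at 12 h and by 0.69 for HBSS at 12 h against 3 h. The unscaled folds of Egfr 1460420_a_at turned to -0.25 and 0.46, which relative to those medians are 0.30 and -0.23. With the set term the MACA fold was 0.38 (adjusted p = 0.0587), with only the compared groups its adjusted p was 0.0905, and without MACA 12 h replicate 1 it was 0.27 (adjusted p = 0.0555). The HBSS call across time was lost with the set term (-0.34, adjusted p = 0.105), with only the compared groups (0.0517), with a trended robust prior (0.0627) and without HBSS 3 h replicate 1 or 3 or HBSS 12 h replicate 2 or 4 (-0.36 to -0.28, adjusted p = 0.0773 to 0.162).

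The remaining Egfr probe sets gave no call. 1451530_at read 64.2, 60.4 and 69.9 in MACA lungs at 12 h, against 42.1, 39.9, 41.1 and 42.4 in HBSS lungs (log2 0.49, adjusted p = 0.0581). These HBSS arrays sit at the noise level, and the groups did not overlap. 1432647_at lay between 25.3 and 85.7, and 1454313_at was under the noise level on all 21 arrays.

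**Figure D1:**
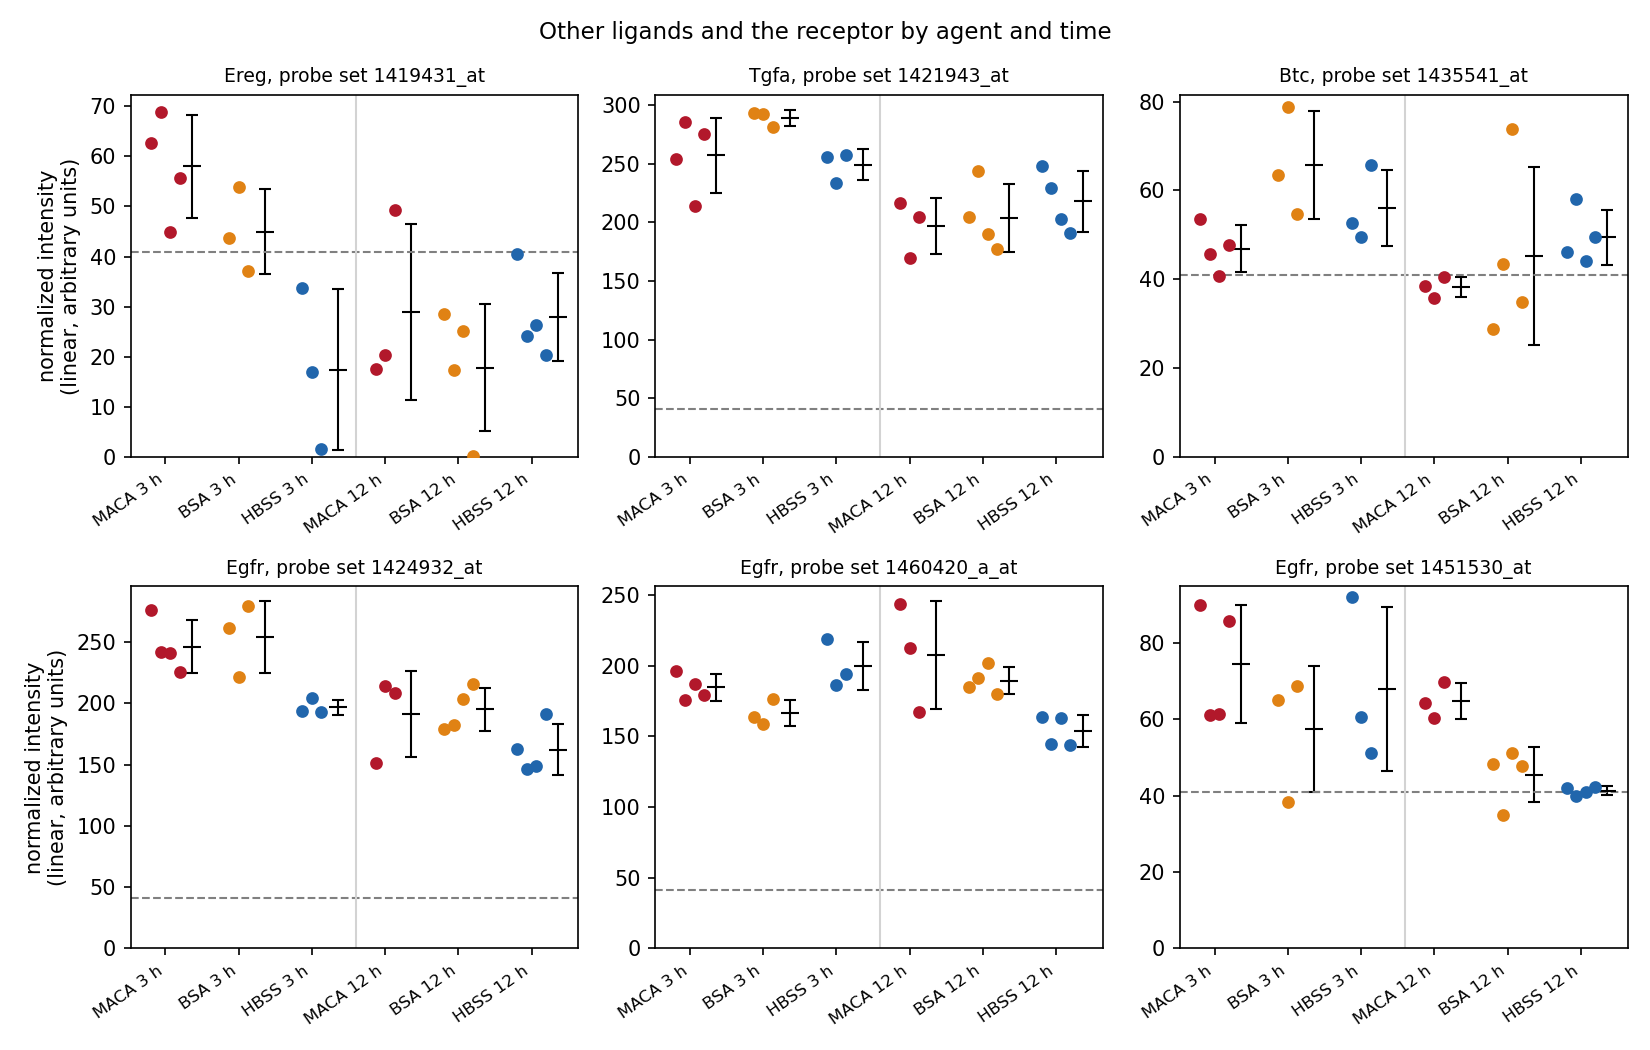
Normalized intensity (linear scale) of Ereg, Tgfa, Btc and 3 Egfr probe sets on every array, by agent and time, with the group mean ± SD as a black bar and the noise level, 40.9, as a dashed line. Ereg and Btc sit around the noise line, Tgfa 1421943_at and 2 Egfr probe sets lie well above it, and the 3 Egfr panels order the groups differently.

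Counted over the 13 probe sets, MACA against HBSS at 3 h called 3 higher (both of Hbegf, and Ereg) and 0 lower, beside 6.13% of all probe sets called in that comparison, 3.83% higher and 2.3% lower. At 12 h it called 3 higher (both of Hbegf, and Egfr 1460420_a_at) and 1 lower (Btc 1421161_at, below noise), beside 17% of all, 8.45% higher and 8.6% lower. MACA against BSA called 1 probe set at 3 h, beside 4.66%, and 1 at 12 h, beside 7.11%, in both cases Hbegf 1418349_at. With 13 probe sets of 5 genes, 2 of them of Hbegf, these counts cannot be read as a shift of the group: the median log2 fold of the 13 was 0.04 at 3 h and -0.01 at 12 h for MACA against HBSS, against -0.02 and 0 over all probe sets.

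BSA against HBSS called 0 of the 13 by limma at each time, where 0.15% of all probe sets were called at 3 h and 1.18% at 12 h. At an unadjusted p under 0.05, 3 of the 13 passed at each time, and the share of all probe sets at that threshold is not given. At 3 h they were Ereg and 2 Egfr probe sets that went opposite ways (1424932_at 0.34, 1460420_a_at -0.24). At 12 h they were the same 2 of Egfr (0.25 and 0.28) and Tgfa 1421942_s_at, under the noise level on all arrays. Between times the test called 0 of 13 in MACA lungs (4 at an unadjusted p under 0.05, 9.12% of all called), 1 in BSA lungs (Tgfa 1421943_at, 3.41% of all) and 1 in HBSS lungs (Egfr 1460420_a_at, 6.93% of all). Whether an agent's effect moved between times was called by limma for 0 of 13 for MACA over HBSS (2 unadjusted, 2.92% of all called). It was called for 0 of 13 for MACA over BSA (0 unadjusted, 0.468% of all) and 0 of 13 for BSA over HBSS (2 unadjusted, 0.504% of all). Taking the brightest probe set of each of the 5 genes, MACA against HBSS called 2 at 3 h (7.27% of all 12393 genes) and 1 at 12 h (19.3%), and BSA at 12 h against 3 h called 1 (4.18%). In the other comparisons limma called 0 of the 5 genes. Those are MACA against BSA at 3 h (2 unadjusted, 5.23% of all genes) and 12 h (1 unadjusted, 8.44%), and BSA against HBSS at 3 h (2 unadjusted, 0.169%) and 12 h (1 unadjusted, 1.17%). Between times they are MACA lungs (3 unadjusted, 10.2%) and HBSS lungs (1 unadjusted, 7.4%). For the move of an effect between times they are MACA over HBSS (1 unadjusted, 3.25%), MACA over BSA (0 unadjusted, 0.508%) and BSA over HBSS (1 unadjusted, 0.46%).

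**Figure D2:**
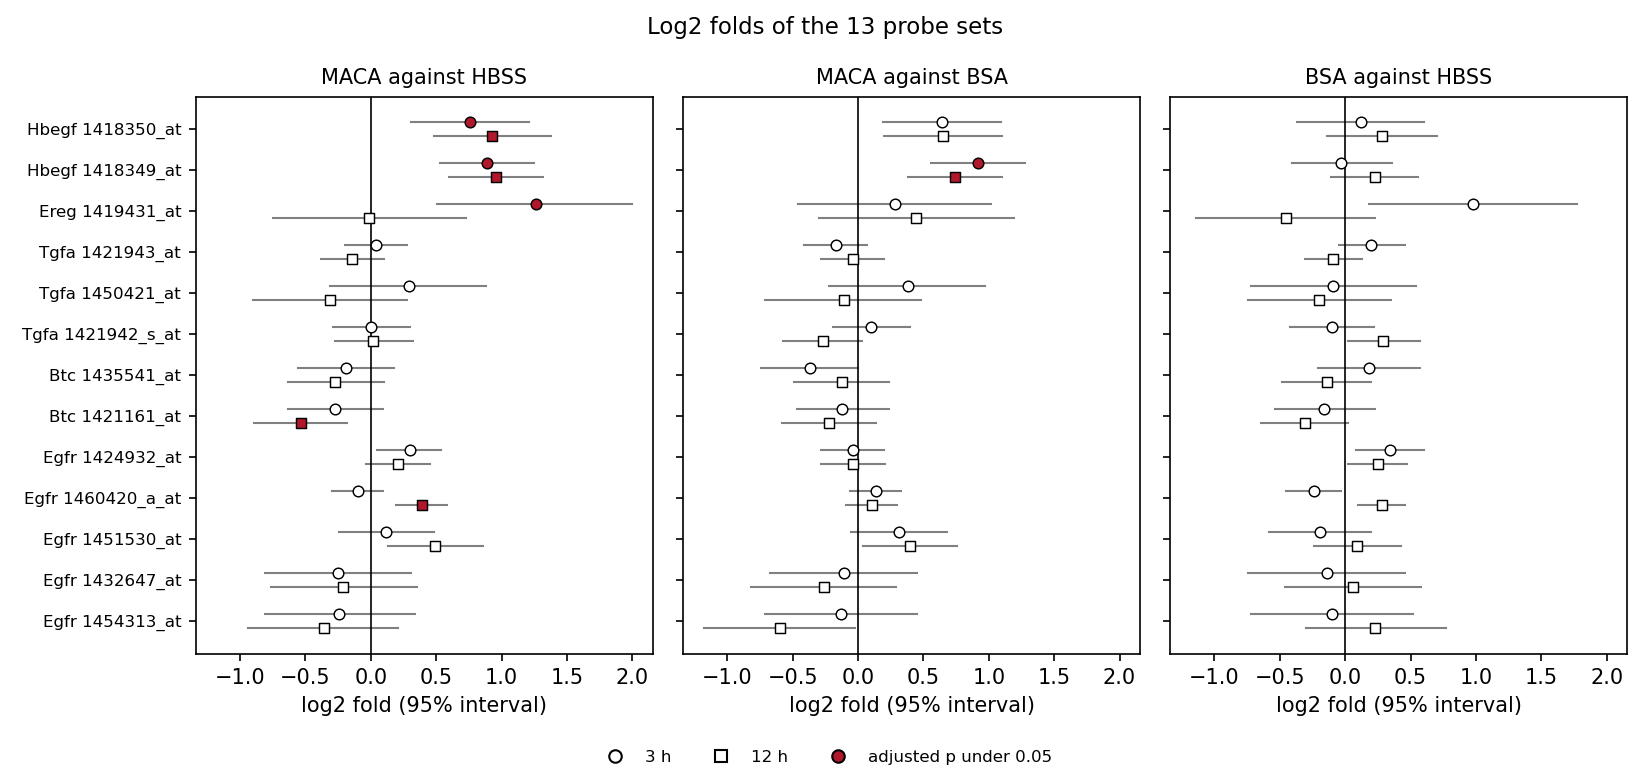
Log2 fold with its 95% interval for each of the 13 probe sets in 3 comparisons, circles for 3 h and squares for 12 h, filled where the adjusted p was under 0.05. Filled points lie on Hbegf in the MACA panels, with Ereg at 3 h and Btc 1421161_at and Egfr 1460420_a_at at 12 h for MACA against HBSS, and no point is filled for BSA against HBSS.

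Of 7 other ligands and receptors of the family that were measured, limma called 0 for MACA against HBSS at 3 h (0 also at an unadjusted p under 0.05). Of all genes 4.56% were called higher and 2.71% lower. At 12 h it called 1, where 9.78% of all genes were higher and 9.53% lower. The 1 gene was Erbb3, a receptor that pairs with other ErbB receptors and has little kinase activity of its own. It read 657 to 695 in MACA lungs, against 783 to 891 in HBSS lungs (log2 -0.33, SE 0.10, adjusted p = 0.0259). With the set term this fold was -0.06 (adjusted p = 0.703), and the call was lost without any 1 of the 3 MACA 12 h arrays or without HBSS 12 h replicate 2, 3 or 4 (adjusted p up to 0.0741). Erbb3 also fell relative to BSA at 3 h (log2 -0.42, adjusted p = 0.0222). Erbb4 and the ligand gene Epgn were under the noise level on all arrays. Nrg1 and Nrg2 were not analysed here.

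Among 11 genes of ligand shedding and trafficking, 3 rose and 1 fell with MACA against HBSS at 3 h, and as many did at 12 h. Over all genes the calls were 4.56% higher and 2.71% lower at 3 h, and 9.78% and 9.53% at 12 h. The list medians, 0.03 and 0.09, lay near the medians of all genes, -0.02 and 0. Adam8, a membrane metalloprotease known from leukocytes, read 274 to 397 in MACA lungs at 3 h, against 98.1 to 142 in HBSS lungs (log2 1.39, SE 0.20, adjusted p = 0.000581). At 12 h it read 298 to 442 in MACA lungs, against 165 to 201 in HBSS lungs (log2 0.93, adjusted p = 0.00431), and with the set term this fold was 0.63 (adjusted p = 0.108). Without scaling neither Adam8 call stood, at 1.5 for 3 h (adjusted p = 0.0563) and 0.29 for 12 h (adjusted p = 0.523), or 1.45 and 0.84 relative to the median. Over BSA Adam8 rose as well, by 0.81 at 3 h (adjusted p = 0.0278) and 0.72 at 12 h (adjusted p = 0.0352).

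Adam17, the main protease that releases Hbegf, Tgfa, Ereg and Areg from the membrane, rose by 0.35 at 3 h (SE 0.07, adjusted p = 0.0103). Its intensities were 537 to 624 in MACA lungs, against 441 to 489 in HBSS lungs. The adjusted p was 0.0574 without HBSS 3 h replicate 3, 0.0622 with only the compared groups, 0.129 within the high set and 0.74 without scaling. Against BSA lungs, at 479 to 531, Adam17 was not called at 3 h. At 12 h it was called higher against HBSS (log2 0.23) and against BSA. Rhbdf1, an iRhom protein that carries Adam17 to the cell surface, rose by 0.49 at 3 h (adjusted p = 0.00176) and 0.33 at 12 h (adjusted p = 0.00964). Without scaling the 3 h call of Rhbdf1 was lost (adjusted p = 0.423) and its 12 h value turned to -0.34, 0.21 above the median shift. With only the compared groups the 12 h adjusted p was 0.0654. Rhbdf1 was called higher against BSA at 3 h but not at 12 h. Adam10, the main protease that releases Btc, was 0.61 lower than in HBSS lungs at 12 h (adjusted p = 0.0169), with 1099.6 to 1229.8 in MACA lungs and 1607 to 2004 in HBSS lungs. BSA lungs read 869 to 1463 at 12 h, and MACA against BSA was not called. The call against HBSS was lost without MACA 12 h replicate 2 (adjusted p = 0.075) and without HBSS 12 h replicate 2 (adjusted p = 0.0511). Bace1 and Nkd2 at 3 h (both log2 -0.53), and Nkd2 (-0.54) and Adam15 (0.34) at 12 h, did not pass. Rhbdf2 was not analysed here.

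Of 17 adaptors and cascade kinases, 1 rose and 0 fell at 3 h (4 and 1 at an unadjusted p under 0.05), and 3 rose and 0 fell at 12 h (5 and 1 unadjusted). The shares of all genes called were 4.56% higher and 2.71% lower at 3 h, and 9.78% and 9.53% at 12 h. Grb2, the adaptor that links the receptor to Ras activation, had a log2 fold of 0.48 at 3 h (adjusted p = 0.0482), with 579 to 832 in MACA lungs and 455 to 533 in HBSS lungs. That call was lost without each of MACA 3 h replicates 2, 3 and 4 and each HBSS 3 h array (adjusted p = 0.0531 to 0.183), with the set term (0.131), the compared groups alone (0.157), the high set (0.338), the replicate block (0.0596), a pseudocount of 4 (0.0539) and no scaling (0.668). At 12 h the 3 were Stat3 (0.58, adjusted p = 0.0347), a transcription factor, Map2k2 (0.56, adjusted p = 0.0124), a kinase of the cascade, and Ptpn11 (0.25, adjusted p = 0.00428), a phosphatase that relays the signal. Without scaling they turned to -0.08, -0.11 and -0.42, which are 0.47, 0.44 and 0.13 above the median shift. With the set term the adjusted p was 0.0552 for Stat3 and 0.0536 for Ptpn11. Without MACA 12 h replicate 2 it was 0.155 for Stat3 and 0.078 for Map2k2, and this left 1 of the 3. Stat3 was also lost without MACA 12 h replicate 3 or HBSS 12 h replicate 1, 2 or 4 (adjusted p = 0.0645 to 0.12). Against BSA at 12 h limma called 0 of the 17 higher (1 unadjusted) and 1 lower, Gab1, so Stat3, Map2k2 and Ptpn11 were not called there. Ptpn11 was also called higher in BSA than in HBSS lungs at 12 h. Its mean log2 values at 12 h were 11.04 in MACA, 11.03 in BSA and 10.79 in HBSS lungs. Shc1 (0.49) and Sos2 (-0.44) at 3 h, and Sos2 (-0.44) and Shc1 (0.36) at 12 h, did not pass against HBSS.

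Feedback inhibitors went both ways. Of 15 measured, 1 rose and 1 fell against HBSS at 3 h, and 0 rose (0 unadjusted) and 3 fell against HBSS at 12 h. Beside these counts, 4.56% of all genes were called higher and 2.71% lower at 3 h, and 9.78% and 9.53% at 12 h. Spry4 was higher at 3 h, 69.2 to 134 in MACA lungs against 44.0 to 53.2 in HBSS lungs (log2 0.78, SE 0.19, adjusted p = 0.0203). Spry2, a related inhibitor of the cascade, was lower, 346 to 432 in MACA lungs against 534 to 793 in HBSS lungs (log2 -0.65, SE 0.16, adjusted p = 0.0235). Against BSA at 3 h both changed in the same directions, Spry4 by 0.97 (adjusted p = 0.00781) and Spry2 by -0.80 (adjusted p = 0.0101). Neither 3 h call against HBSS stood with only the compared groups (adjusted p = 0.122 for Spry4 and 0.0831 for Spry2), within the high set (0.1 and 0.193) or without scaling (0.143 and 0.652), and that of Spry2 was lost with the set term (0.052). Against HBSS the Spry4 call was lost without MACA 3 h replicate 4 or HBSS 3 h replicate 2 or 3 (adjusted p = 0.0633 to 0.0839). The Spry2 call was lost without MACA 3 h replicate 3 or HBSS 3 h replicate 1 or 3 (adjusted p = 0.0639 to 0.125). Cbl (0.38) and Socs4 (-0.30, with both group means under the noise level) did not pass.

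At 12 h the gene with the largest fall among them was Errfi1, whose product binds the receptor's kinase domain and blocks it. It read 1369 to 1464 in MACA lungs, 1993 to 2438 in BSA lungs, and 2186 to 3578 in HBSS lungs. MACA lungs were below both other groups without overlap, by -0.99 against HBSS (SE 0.17, adjusted p = 0.00108) and -0.61 against BSA (adjusted p = 0.0364). At 3 h Errfi1 overlapped between MACA, BSA and HBSS lungs (0.10 against BSA, adjusted p = 0.81). Spry2 (-0.50, adjusted p = 0.04) and Socs5 (-0.45, adjusted p = 0.0348) were also lower than in HBSS lungs at 12 h. Unlike Errfi1, neither was called against BSA at 12 h. The mean log2 values of Spry2 at 12 h were 8.98 in MACA, 9.003 in BSA and 9.48 in HBSS lungs. For Socs5 they were 8.998 in MACA, 9.03 in BSA and 9.44 in HBSS lungs. Both calls against HBSS were lost with the set term (adjusted p = 0.101 and 0.313) and with only the compared groups (0.0973 and 0.0715). Both were also lost without HBSS 12 h replicate 2 or 3 or MACA 12 h replicate 2 (adjusted p = 0.065 to 0.133). Spry2 was further lost without MACA 12 h replicate 3 or HBSS 12 h replicate 1 (0.184 and 0.0582), and Socs5 without MACA 12 h replicate 1 or HBSS 12 h replicate 4 (0.153 and 0.0671). Rasa1 (-0.26) did not pass, nor did Socs4, which was under the noise level on every MACA 12 h array and has no readable fold. Against BSA at 12 h Spry4 was called higher, with 57.8 to 89.1 in MACA lungs and 25.1 to 39.0, under the noise level, in BSA lungs. HBSS lungs read 46.8 to 77.0 for Spry4 at 12 h.

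Growth factors induce a known group of genes, most of them transcription factors that many other signals induce as well. Of 19 such genes at 3 h, 14 were higher and 0 lower in MACA than in HBSS lungs (14 and 0 also at an unadjusted p under 0.05), with a median log2 fold of 1.08. Leaving out 1 array at a time gave 12 to 14 higher. Among all genes 4.56% were called higher and 2.71% lower at 3 h. Against BSA at 3 h, 12 of the 19 were called higher and 0 lower (13 and 0 unadjusted), with a median of 0.73, beside 5.23% of all genes called. BSA against HBSS at 3 h called 1 higher, Fosl1, and 0 lower (5 and 0 unadjusted), beside 0.169% of all genes. Egr1 read 3284 to 5755 in MACA lungs, 1437 to 1860 in BSA lungs and 608 to 1032 in HBSS lungs, with a MACA to HBSS fold of 2.39 on the log2 scale (SE 0.31, adjusted p = 0.000271). Atf3, a stress-induced factor, rose by 2.30 (adjusted p = 0.000503). Fosl1, an AP-1 subunit, read 170.05 to 238 in MACA lungs, 174 to 261 in BSA lungs and 0 to 2.62 in HBSS lungs. Set against the noise level it was at least 3.65-fold higher with MACA (adjusted p = 0.00275) and at least 4.12-fold higher with BSA (adjusted p = 0.029). The 5 that did not pass were Srf and Ets2 (both 0.21), Klf10 (0.09), Egr3 (0.006) and Klf6 (-0.083), the last 3 named after their values were seen.

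At 12 h 3 of the 19 were higher and 1 lower in MACA than in HBSS lungs, with a median of 0.33. Among all genes 9.78% were called higher and 9.53% lower at 12 h. Junb was 1.48 higher (adjusted p = 0.00151), with 887 to 1231 in MACA lungs and 279 to 499 in HBSS lungs. Maff was 0.99 higher (adjusted p = 0.00271) and Egr2 0.87 higher (adjusted p = 0.0172). The set term took Maff to 0.80 (adjusted p = 0.0521) and Egr2 to 0.55 (adjusted p = 0.257), and Egr2 was lost without MACA 12 h replicate 2 (adjusted p = 0.0835). Without scaling both calls were lost, Maff at 0.34 (adjusted p = 0.378) and Egr2 at 0.24 (adjusted p = 0.638), or 0.89 and 0.79 relative to the median. Without HBSS 12 h replicate 3 the count was 6 higher. Egr3, not over noise on any MACA 12 h array, and Myc (0.99) did not pass.

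**Figure D3:**
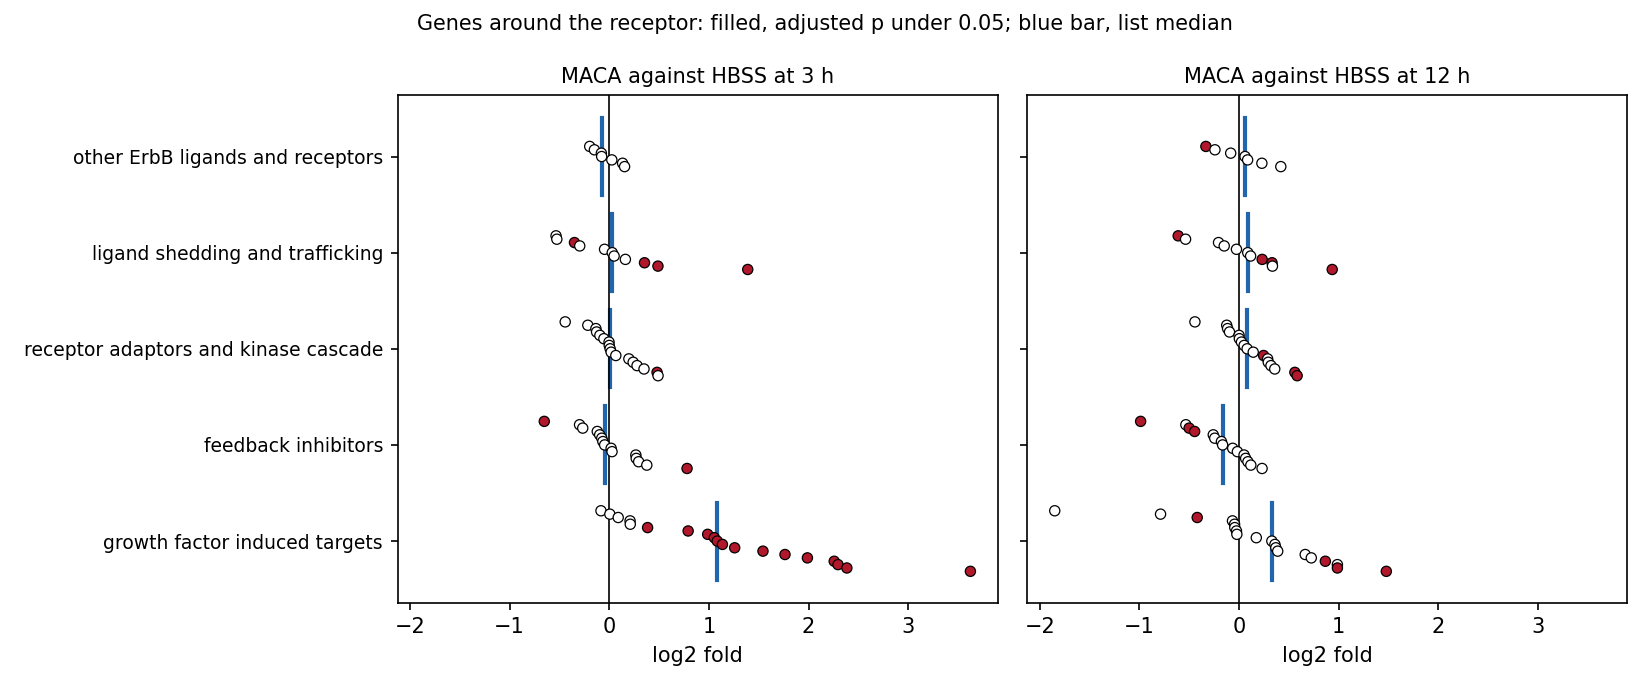
Log2 fold of MACA against HBSS for each gene of 5 lists around the receptor, at 3 h (left) and 12 h (right); each point is 1 gene, filled where the adjusted p was under 0.05, and the blue bar is the list median. The induced targets stand to the right at 3 h with a median of 1.08, and the other 4 lists have medians between -0.08 and 0.03.

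Markers of other cell types moved with the same comparisons. For MACA against HBSS, 4.56% of all genes were called higher and 2.71% lower at 3 h, and 9.78% and 9.53% at 12 h. Of 11 neutrophil markers, 5 were higher in MACA than in HBSS lungs at 3 h and 3 at 12 h, and 0 were lower (0 also at an unadjusted p under 0.05). Their summed intensity was 7690 to 11815 in MACA lungs, 1566 to 4298 in BSA lungs and 1123 to 3529 in HBSS lungs at 3 h. At 12 h it was 4412 to 7886 in MACA lungs, 3087 to 6999 in BSA lungs and 1855 to 3126 in HBSS lungs. The granule markers Elane and Mpo were under the noise level on every MACA array, and Camp was at 3 h. Of 12 macrophage and monocyte markers, 2 were higher at 3 h and 5 at 12 h. Their sum at 3 h was 20702 to 23185 in MACA lungs, 16895 to 18214 in BSA lungs and 15576 to 19419 in HBSS lungs. The 12 h sums were 19247 to 21295 in MACA lungs, 16365 to 20662 in BSA lungs and 16699 to 18837 in HBSS lungs, so MACA and BSA overlapped. Marco and Itgam were under the noise level on every HBSS array, and in MACA lungs no marker of this list was so on every array of a time.

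Markers of the lung's own structural cells and of other leukocytes were set beside these. The shares of all genes called were again 4.56% higher and 2.71% lower at 3 h, and 9.78% and 9.53% at 12 h. In lists of 10 to 14 genes, counts near such shares cannot be read as a change of the cells. Of 13 alveolar epithelial markers 0 were called at 3 h (1 higher and 1 lower unadjusted), and at 12 h 3 were higher and 1 lower. Of 12 airway epithelial markers 1 was higher and 1 lower at 3 h, and 0 were called at 12 h (0 unadjusted). Of 10 endothelial markers 0 were called at 3 h (2 lower unadjusted) and 0 at 12 h (1 higher and 2 lower unadjusted), and of 11 fibroblast and smooth muscle markers 0 were called at 3 h (1 higher unadjusted) and 3 were lower at 12 h. Of 14 mast cell, basophil and eosinophil markers 0 were called at 3 h (1 lower unadjusted) and at 12 h Cpa3 was higher and Kit lower, with 10 of the 14, Cpa3 among them, under the noise level on every MACA array of either time. Of 12 T cell and innate lymphoid markers 0 were called at 3 h (1 higher and 1 lower unadjusted), and at 12 h Nkg7 was higher and Rora lower. The part of these cell types in the values of Hbegf, Ereg, Adam8 and the induced targets was not tested.

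Likeness of pattern was measured as the root mean square difference of the 6 centred group means, on the log2 scale, over 9304 genes. The 5 genes nearest to Hbegf, taken by 1418350_at, were Csf2rb2 (0.0822), Myd88 (0.101), Mapkapk2 (0.111), Sod2 (0.112) and Ifngr2 (0.113). Of these Myd88 and Sod2 were called higher in MACA lungs in all 4 comparisons with HBSS and BSA, while Hbegf 1418350_at was called only against HBSS. Myd88, an adaptor of Toll-like receptors, was 1.02 higher than HBSS at 3 h and 1.12 at 12 h. Sod2, the mitochondrial superoxide dismutase, was 0.77 and 0.93 higher at those times. The 5 nearest to Ereg were Mall (0.169), Rhbg (0.173), Rrs1 (0.173), Elf3 (0.181) and Fgl2 (0.186). As 4 of the 6 group means of Ereg lie under the noise level, this ranking is set mostly against values that cannot be read. In these 5, the log2 fold of MACA against BSA at 3 h lay between -0.15 and 0.28 and was not called. Since the genes were picked for likeness over the same 21 arrays, these values describe them only.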

How the data were processed

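The deposited table held 1 column of values per array, and the authors' values were intensities on a linear scale. Which software summarised and scaled them is not given in the sources used here. Per the labels' protocols, RNA came from a spin column and was hybridised as cRNA carrying biotin. The labels number the arrays of a group as biological replicates. Between 9.37% and 11.1% of an array's values were below 0, and array medians ran between 93.5 and 287.8, so the arrays were not on 1 level. The number of arrays limits the precision.

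After 64 control probe sets were left out, intensities were quantile normalized, values below 0 set to 0 and log2(value + 16) taken. Noise was set at the size that 95% of the values below 0 did not exceed. limma (3.58.1, R 4.3.3) fitted the 6 group means to 21 arrays, with 15 residual degrees of freedom, and 12 comparisons were drawn from it. A probe set under noise on every array of 1 group has a fold of "at least" the other group's mean over, per array, the higher of noise and its own value. Of 22626 probe sets, 20380 had 1 gene symbol, 691 several and 1555 none, with symbols updated by gene number through RefSeq's table for GRCm38.p6. Per gene the brightest probe set over all arrays stood for the lists.

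The rule named every member and, per list, up to 3 genes with the largest change past the threshold and 2 that did not pass for MACA against HBSS at each time, and the 5 genes most like any member whose group means span over 1 log2 unit. Genes named outside the rule (other comparisons of these genes, marker genes) were chosen after their values were seen. The members, lists, technical set and settings were chosen with earlier results of these data known. Alternatives were other scalings, pseudocounts of 4 and 64, a noise filter, 1 probe set per gene, fits on the compared groups, the replicate number as a block, the technical set, a trended robust prior and leaving out each array. Counts over the lists under these were added after seeing the data. Figures used python 3.11.15 and matplotlib 3.10.9.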

Additional observations from a re-analysis of the deposited data

Results flagged for a closer look

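Among the 39 sets of 4 arrays that the 13 probe sets give, 2 held an array far from the other 3, a count that was not tested against chance. Both were of Tgfa 1421942_s_at, which is under the noise level on all 21 arrays. In MACA lungs at 3 h replicate 4 read 5.27 and the other arrays 0, and in HBSS lungs at 12 h replicate 3 read 0.158 and the other arrays 0. The gap of that array made up the whole range in each set (ratio 1), because values below 0 had been set to 0.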

How the results depend on the processing

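Counts below are of the 5 genes by their brightest probe set. For MACA against HBSS at 3 h 2 were called, and 0 without scaling, with a pseudocount of 4 and within the high technical set, 1 with median scaling, with only the compared groups and with the set term, and 0 to 2 without 1 array. At 12 h 1 was called, Hbegf, and without scaling 2 others were called in its place, Tgfa (-0.78, adjusted p = 0.0288) and Btc (-0.81, adjusted p = 0.0119), both lower. The median of all probe sets shifted by -0.55 there, and relative to it Tgfa was at -0.23 and Btc at -0.26. Leaving out 1 array gave 0 to 2 (2 without MACA replicate 1, 0 without replicate 2). For MACA against BSA at 3 h the 0 calls became 0 to 1 without 1 array. In MACA lungs between times the 0 calls became 1 with the set term and 0 to 1 without 1 array. In BSA lungs the 1 call became 0 without scaling, with only the compared groups, with the set term and within the high set, and 0 to 1 without 1 array. In HBSS lungs the 0 calls became 2 without scaling and 1 with only the compared groups, and the move of the MACA over HBSS gap between times gave 1 without scaling, against 0. Without scaling Btc 1435541_at in HBSS lungs between times turned to 0.60, and Egfr 1460420_a_at to 0.46. Relative to the median shift of 0.69 in that comparison they were -0.10 and -0.23. At 12 h MACA against HBSS turned to -0.25 for Egfr 1460420_a_at, -0.34 for Rhbdf1, -0.08 for Stat3, -0.11 for Map2k2 and -0.42 for Ptpn11. The replicate number as a block gave 1 gene for MACA against HBSS at 3 h. Same-numbered arrays of these groups did not deviate together (correlations 0.0294 to 0.0691 over 3 pairs at 3 h, -0.131 to 0.0951 at 12 h), and in no comparison did every pair exceed 0.1, though 3 of 4 did for BSA against HBSS at 12 h (0.0724 to 0.342) and 2 of 3 for MACA against BSA at 3 h (-0.0118 to 0.106). The numbers were therefore not taken as pairs. Over all probe sets, calls without scaling were 170 higher and 12 lower for MACA against HBSS at 3 h, against 867 and 520, and 264 and 8807 at 12 h, against 1911 and 1946. They were 54 and 2 for MACA against BSA at 3 h, against 605 and 450, and 0 and 0 for BSA against HBSS at 3 h, against 30 and 4. At 12 h BSA against HBSS gave 14 and 3828, against 91 and 176, and HBSS at 12 h against 3 h gave 12588 and 84, against 800 and 769. Without MACA 12 h replicate 2, MACA against HBSS at 12 h called 1889 probe sets, against 3857, and without HBSS 3 h replicate 3 the 3 h comparison called 596, against 1387. The causes were not tested. The higher count of induced targets at 3 h was 9 without scaling, against 14. Signal limits Ereg, Btc and the dim probe sets of Tgfa and Egfr, whose differences near or under noise cannot be read.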
